A study of Mus musculus with 128 samples.

Results

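Hepatocytes of the Foxa3Cre mouse line near the end of gestation (embryonic day E19.5) were compared between Pard3HMKO, with 133 cells in 2 libraries of 68 and 65 cells, and Pard3WT, with 132 cells in 2 libraries of 61 and 71 cells. Members were all cell columns that the read count table names by this age, Cre line and Pard3 genotype, without a filter on cells. They make up 265 of the 4264 cells in the table and 4 of the 128 samples of the series, which also holds other ages, Cre lines, cultures, adult livers and open chromatin libraries. The Pard3HMKO mice carried the Foxa3-Cre transgene and floxed Pard3 on both alleles, and the Pard3WT mice carried Foxa3-Cre alone, so that both groups express the recombinase. All 4 libraries are labelled hepatocyte, strain C57BL/6 and Smart-seq3xpress, a plate-based method for RNA of single cells. The Foxa3 promoter is active in the endoderm and not in hepatocytes alone, so deletion in the gut and other endodermal organs is part of this model. The labels give neither the sex nor the number of animals behind a library. The p-values below therefore measure the spread between libraries, which may be technical. That spread was estimated over 44 in vivo libraries of the Foxa3Cre and AlfpCre lines, with Yap genotypes among them, and not over these 4 alone. Sorting of endoderm from somite-stage embryos is the only cell isolation in the labels' protocol, which therefore does not describe how E19.5 liver cells were taken.

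Pard3 encodes PAR-3, a scaffold that joins PAR-6 and atypical protein kinase C at the apical side of epithelial cells and takes part in building tight junctions and, in the liver, bile canaliculi. Around birth the hepatocyte leaves the programme of the dividing hepatoblast, with its fetal genes such as Dlk1 and Trim71. It takes up glucose production, ketone body synthesis, bile acid synthesis, drug and steroid metabolism and the secretion of plasma proteins. The gene groups below follow these functions.

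A library held 33162059 to 44372233 reads, and its median cell 460363 to 567419 reads and 6458 to 6789 genes. Alb reads were present in 100% of the cells of each library. Alb was very abundant in all of them, so a read alone does not identify a hepatocyte. Reads of Y-linked genes (Ddx3y, Eif2s3y, Kdm5d, Uty) set the libraries apart. The Pard3HMKO libraries held 16 and 23 Y reads beside 6265 and 4409 reads of Xist, the transcript of the inactive X chromosome, and the Pard3WT libraries held 1561 and 2069 Y reads beside 2480 and 2307 Xist reads. No Pard3HMKO cell had Y reads alone, while 9 and 16 Pard3WT cells did, and 28 and 33 Pard3WT cells had both kinds. The Pard3HMKO libraries thus looked female and the Pard3WT libraries mixed, so results are also given for the 67 and 65 Pard3HMKO cells and the 37 and 38 Pard3WT cells with more Xist than Y reads, a subset chosen after seeing the data. Cells with reads for at least 50% of a marker list of another cell type, mostly erythroid, were 35.3% and 30.8% of the Pard3HMKO cells and 39.3% and 42.3% of the Pard3WT cells.

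Enzymes of glucose, fat, bile acid and steroid metabolism and plasma proteins were among the genes that fell in Pard3HMKO, and fetal and cell division genes among those that rose. Of 18572 genes tested, 559 rose in Pard3HMKO (3.01%) and 732 fell (3.94%), together 6.95%, at an adjusted p below 0.05. The libraries of the groups did not overlap for 45.5% of all genes. Among the 6636 genes with a mean of at least 10 reads per 1000000 (CPM, counts scaled to the library total and its TMM factor) 6.83% rose and 9.49% fell, the shares against which liver genes should be read. The change was over 2-fold for 247 of the risen and 377 of the fallen genes and over 16-fold for 20 and 65. The split depended on scaling. With RLE size factors 413 rose and 920 fell. With each cell weighted alike 1471 rose and 493 fell, and the median log2 fold change of the genes with at least 10 CPM was 0.27, against 0.04 as reported and -0.04 with RLE. The setting with cells weighted alike averaged the reads per 1000000 of each cell, without a TMM or RLE factor. It thus changed cell weighting and scaling together, and their parts were not told apart. In the cells with more Xist than Y reads 181 rose and 351 fell, of which 164 and 337 were among those above. Without the cells marked for other types, 181 rose and 314 fell.

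Pard3, on chromosome 8 at 127063381-127612286 of GRCm38, was not called by edgeR, at 48.8 and 50.3 CPM in the Pard3HMKO libraries, against 33.3 and 41.5 CPM in the Pard3WT libraries (log2 fold change 0.40 ± 0.21, adjusted p = 0.31). With each cell weighted alike (limma) it was called higher in Pard3HMKO, at 0.69 ± 0.21, adjusted p = 0.0297. Reads of all its exons are counted together, and the floxed exons are not named, so the deletion itself was not tested. Afp, the fetal albumin, was not called by edgeR, at 55114 and 57237 CPM in Pard3HMKO, against 50518 and 51542 CPM in Pard3WT (log2 fold change 0.14 ± 0.13, adjusted p = 0.631). It was called higher with each cell weighted alike (0.41 ± 0.09, adjusted p = 0.0022) and with B6C3F1 in place of Pard3WT (0.78 ± 0.13, adjusted p = 4.77e-05). Alb was lower, at 109194 and 116059 CPM in the Pard3HMKO libraries, against 147009 and 158084 CPM in the Pard3WT libraries (log2 fold change -0.44 ± 0.12, adjusted p = 0.0271). That call was lost without any 1 of the 4 libraries (log2 fold change -0.49 to -0.38), with each cell weighted alike (-0.17) and in the cells with more Xist than Y reads (-0.47).

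The 12 largest falls among genes with at least 10 CPM included metabolic enzymes and a hormone receptor that were nearly silent in Pard3HMKO. Cyp2c69, a cytochrome P450 gene, had 1.41 and 1.49 CPM in the Pard3HMKO libraries, against 305 and 263 CPM in the Pard3WT libraries (log2 fold change -7.61 ± 0.78, adjusted p = 5.00e-07). Hsd3b6, which encodes a 3-beta-hydroxysteroid dehydrogenase, had 0.149 and 0.166 CPM in Pard3HMKO, against 61.4 and 47.5 CPM in Pard3WT (log2 fold change -8.41 ± 1.72, adjusted p = 0.00351). G6pc, the catalytic subunit of glucose-6-phosphatase and the last step of glucose release, had 1.19 and 1.79 CPM in Pard3HMKO, against 104 and 114 CPM in Pard3WT (log2 fold change -6.21 ± 0.61, adjusted p = 4.55e-07). In each of the 3 the groups lay far apart and both libraries of a group were close to each other. The call was lost for Hsd3b6 without either Pard3HMKO library (adjusted p = 0.0674 to 0.0806), where the value was -8.48 to -8.32.

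Prlr, the prolactin receptor, fell to 0.767 and 1.03 CPM in Pard3HMKO, against 89.9 and 103 CPM in Pard3WT (log2 fold change -6.76 ± 0.63, adjusted p = 7.58e-08). Eif4ebp3, a repressor of cap-dependent translation, had 0.891 and 0.299 CPM in Pard3HMKO, against 56.2 and 49.6 CPM in Pard3WT (log2 fold change -6.40 ± 0.72, adjusted p = 1.28e-06). Iigp1, an interferon-inducible GTPase, had 1.86 and 3.65 CPM in Pard3HMKO, against 88.3 and 108 CPM in Pard3WT (log2 fold change -5.18 ± 0.56, adjusted p = 7.39e-07), and Fgl1, a fibrinogen-like protein secreted by hepatocytes, 13.6 and 21.4 CPM in Pard3HMKO, against 598 and 609.6 CPM in Pard3WT (log2 fold change -5.11 ± 0.47, adjusted p = 8.98e-08). Smad9, a transducer of bone morphogenetic protein signals, had 0.297 and 0.199 CPM in Pard3HMKO, against 14.8 and 8.69 CPM in Pard3WT (log2 fold change -5.53 ± 1.296, adjusted p = 0.00542). These genes were low in both Pard3HMKO libraries. That their libraries did not overlap between the groups was required by the rule for naming them. The call was lost for Smad9 without either Pard3HMKO library (adjusted p = 0.0889 to 0.111).

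Another 3 of the 12 call for care. Ddx3y (log2 fold change -7.18 ± 0.40, adjusted p = 1.35e-14) and Eif2s3y (log2 fold change -6.63 ± 0.40, adjusted p = 7.20e-14) are Y-linked, and their fall is that of the Y reads above. Acta2, smooth muscle actin, had 0.124 and 0.0664 CPM in the Pard3HMKO libraries, against 43.5 and 0.283 CPM in the Pard3WT libraries (log2 fold change -7.76 ± 2.11, adjusted p = 0.0201), and 1 cell held 91.3% of its reads in Pard3WT library 1. The call was lost for Acta2 without either Pard3HMKO library or Pard3WT library 1 (adjusted p = 0.196 to 0.878). Without the marked cells its value was -0.73 ± 2.03, adjusted p = 1.

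**Figure D1:**
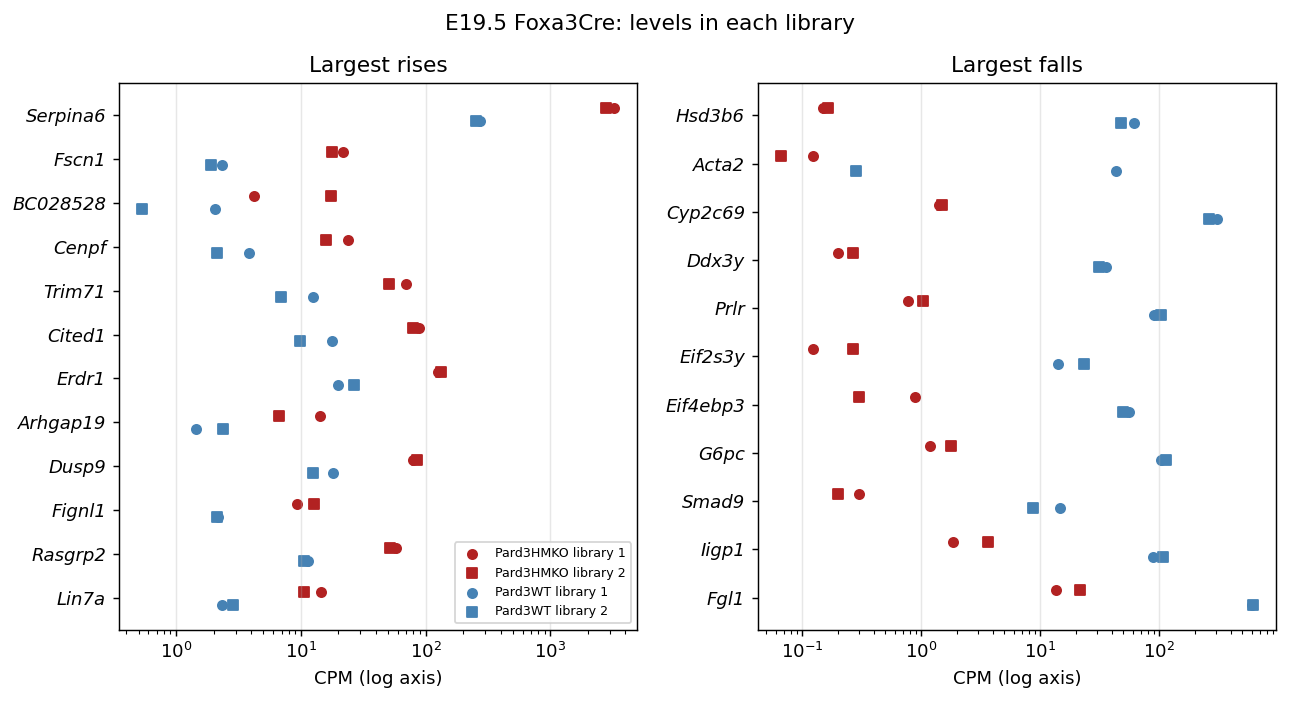
CPM (log axis) of the 12 genes with the largest rises (left) and 11 of the 12 with the largest falls (right) in each of the 2 Pard3HMKO libraries (red) and the 2 Pard3WT libraries (blue). The libraries of the groups do not overlap for any of the 23, which the rule for naming them required, and Acta2 is the gene with the widest spread within Pard3WT.

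The RefSeq promoter windows (build GRCm38.p6, 250 bases before to 50 after the start) of 8 of these falls and 9 of the rises below were searched on both strands for 6 short motifs. They were the HNF4A core CAAAGTCCA, C/EBP TTGCNNAA, the HNF1 half-site GTTAAT, the glucocorticoid receptor half-site TGTTCT, CREB TGACGTCA and AP-1 TGANTCA. The windows of 3 reduced enzyme genes and of Fscn1, a risen gene with a CREB match, are shown. Capitals mark the matches, which do not overlap in these 4 windows.
Cyp2c69, chr19:39886720-39887019, minus strand: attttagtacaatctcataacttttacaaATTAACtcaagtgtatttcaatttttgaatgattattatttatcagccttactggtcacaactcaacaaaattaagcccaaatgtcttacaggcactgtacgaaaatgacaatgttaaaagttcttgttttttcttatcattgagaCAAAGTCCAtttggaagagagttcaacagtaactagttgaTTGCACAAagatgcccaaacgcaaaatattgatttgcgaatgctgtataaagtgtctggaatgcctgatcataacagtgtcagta
G6pc, chr11:101367466-101367765, plus strand: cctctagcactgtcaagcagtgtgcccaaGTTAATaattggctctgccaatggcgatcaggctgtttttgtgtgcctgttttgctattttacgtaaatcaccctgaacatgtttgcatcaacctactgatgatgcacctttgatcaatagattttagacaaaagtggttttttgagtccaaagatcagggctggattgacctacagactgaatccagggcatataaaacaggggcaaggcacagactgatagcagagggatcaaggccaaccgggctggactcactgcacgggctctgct
Hsd3b6, chr3:98814394-98814693, minus strand: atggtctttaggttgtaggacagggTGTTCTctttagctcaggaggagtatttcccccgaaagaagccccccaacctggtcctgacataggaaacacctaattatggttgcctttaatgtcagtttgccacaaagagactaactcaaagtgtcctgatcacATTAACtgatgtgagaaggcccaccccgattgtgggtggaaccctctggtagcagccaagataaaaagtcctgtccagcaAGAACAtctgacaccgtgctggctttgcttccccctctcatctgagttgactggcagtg
Fscn1, chr5:142960105-142960404, plus strand: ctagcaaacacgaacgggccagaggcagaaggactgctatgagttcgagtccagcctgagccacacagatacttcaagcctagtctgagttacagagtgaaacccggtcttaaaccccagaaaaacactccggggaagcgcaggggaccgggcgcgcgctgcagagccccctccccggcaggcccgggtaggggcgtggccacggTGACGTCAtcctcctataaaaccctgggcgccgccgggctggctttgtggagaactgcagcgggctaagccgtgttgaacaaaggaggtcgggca
The HNF4A core was found at the Cyp2c69 window (first base at -75 from the start), and in 0.475% of 32851 windows overall. A C/EBP match stood at -35 of Cyp2c69 and in windows of Prlr, against 10.8% of all windows. HNF1 half-sites stood at -221 of Cyp2c69, -221 of G6pc and -89 of Hsd3b6 (7.1% of all windows), and in windows of the risen Arhgap19 and Rasgrp2. Hsd3b6 held glucocorticoid half-sites at -225 and -9, a motif in 19% of all windows that was also in windows of the fallen Acta2 and Prlr and the risen Fignl1, and Fscn1 held the CREB motif at -45 (1.79%). AP-1 was matched in a window of Prlr (7.81% of all windows). In the authors' open chromatin peak lists at E17.5, 1 of 3 Pard3HMKO and 3 of 3 Pard3WT libraries had a peak over the G6pc window, and 1 of 3 and 0 of 3 over the Fscn1 window. None of the 6 lists had a peak over the Cyp2c69 or Hsd3b6 windows, while 34.4% to 36.7% of all windows had one. These lists are of E17.5 and not of E19.5.

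The 12 largest rises included a hormone carrier, a gene of early development and genes of cell division. Serpina6, which encodes corticosteroid-binding globulin, had 3228 and 2806 CPM in the Pard3HMKO libraries, against 272 and 252 CPM in the Pard3WT libraries (log2 fold change 3.53 ± 0.23, adjusted p = 3.51e-10). Trim71, an RNA-binding ubiquitin ligase of early development, had 70.1 and 50.8 CPM in Pard3HMKO, against 12.6 and 6.90 CPM in Pard3WT (log2 fold change 2.64 ± 0.31, adjusted p = 1.16e-06). Cited1, a transcriptional coregulator, had 88.1 and 79.2 CPM in Pard3HMKO, against 17.7 and 9.86 CPM in Pard3WT (log2 fold change 2.61 ± 0.29, adjusted p = 4.86e-07). All 3 lay higher in both Pard3HMKO libraries than in either Pard3WT library, which the rule for naming them required.

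Regulators of small GTPases and of ERK were also among them. Dusp9, a phosphatase that switches off ERK, had 79.5 and 85.1 CPM in Pard3HMKO, against 18.2 and 12.504 CPM in Pard3WT (log2 fold change 2.42 ± 0.21, adjusted p = 5.41e-10). Rasgrp2, an exchange factor for Ras-family GTPases, had 58.1 and 51.6 CPM in Pard3HMKO, against 11.4 and 10.5 CPM in Pard3WT (log2 fold change 2.33 ± 0.29, adjusted p = 1.04e-06), and Arhgap19, a GTPase-activating protein, 14.4 and 6.64 CPM in Pard3HMKO, against 1.44 and 2.36 CPM in Pard3WT (log2 fold change 2.46 ± 0.65, adjusted p = 0.0147). Fscn1, the actin-bundling protein fascin, had 21.9 and 17.7 CPM in Pard3HMKO, against 2.32 and 1.92 CPM in Pard3WT (log2 fold change 3.23 ± 0.42, adjusted p = 6.40e-06), and Lin7a, a PDZ scaffold of polarity complexes, 14.46 and 10.6 CPM in Pard3HMKO, against 2.32 and 2.83 CPM in Pard3WT (log2 fold change 2.28 ± 0.36, adjusted p = 3.77e-05). The kinetochore gene Cenpf (log2 fold change 2.75 ± 0.81, adjusted p = 0.0401) and Fignl1, an ATPase of DNA repair (log2 fold change 2.36 ± 0.63, adjusted p = 0.0174), rose as well. Calls were lost for Cenpf without any 1 of the 4 libraries (adjusted p = 0.0846 to 0.302), Fignl1 without any 1 of the 4 libraries (adjusted p = 0.0507 to 0.156) and Arhgap19 without Pard3HMKO library 1 or either Pard3WT library (adjusted p = 0.0683 to 0.237). Without the marked cells these 3 and Lin7a were not called, at log2 fold changes of 2.86 for Cenpf, 2.44 for Fignl1, 2.26 for Arhgap19 and 1.91 for Lin7a. BC028528 was uneven, at 4.23 and 17.4 CPM in Pard3HMKO, against 2.05 and 0.535 CPM in Pard3WT (log2 fold change 3.07 ± 0.78, adjusted p = 0.0111). Its call was lost without Pard3HMKO library 2 (1.71) and without Pard3WT library 2 (2.39). Erdr1 had 126.4 and 132 CPM in Pard3HMKO, against 19.8 and 26.6 CPM in Pard3WT (log2 fold change 2.48 ± 0.45, adjusted p = 6.52e-04), and in cells with more Xist than Y reads 2.68 ± 0.25, adjusted p = 2.10e-07.

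Restricting the cells left most of these sizes in place. With more Xist than Y reads required, Serpina6 was 3.46 ± 0.20, adjusted p = 4.92e-07, Fgl1 -5.23 ± 0.57, adjusted p = 1.38e-04, G6pc -6.30 ± 0.68, adjusted p = 5.19e-05 and Cyp2c69 -7.91 ± 0.95, adjusted p = 2.43e-04. Prlr was -6.79 ± 0.81, adjusted p = 7.59e-05 and Trim71 2.29 ± 0.22, adjusted p = 2.34e-07. No longer called in that subset were, of the 23 genes drawn, Acta2, BC028528, Cenpf, Arhgap19 and the 2 Y-linked genes. It still held Y reads, with Ddx3y at -3.34 and Eif2s3y at -3.085. With Xist reads and no Y reads required, a stricter subset, genes not called by edgeR also included Smad9 (-5.93 ± 1.98, adjusted p = 0.141) and Iigp1 (-5.27 ± 1.17, adjusted p = 0.0512).

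**Figure D2:**
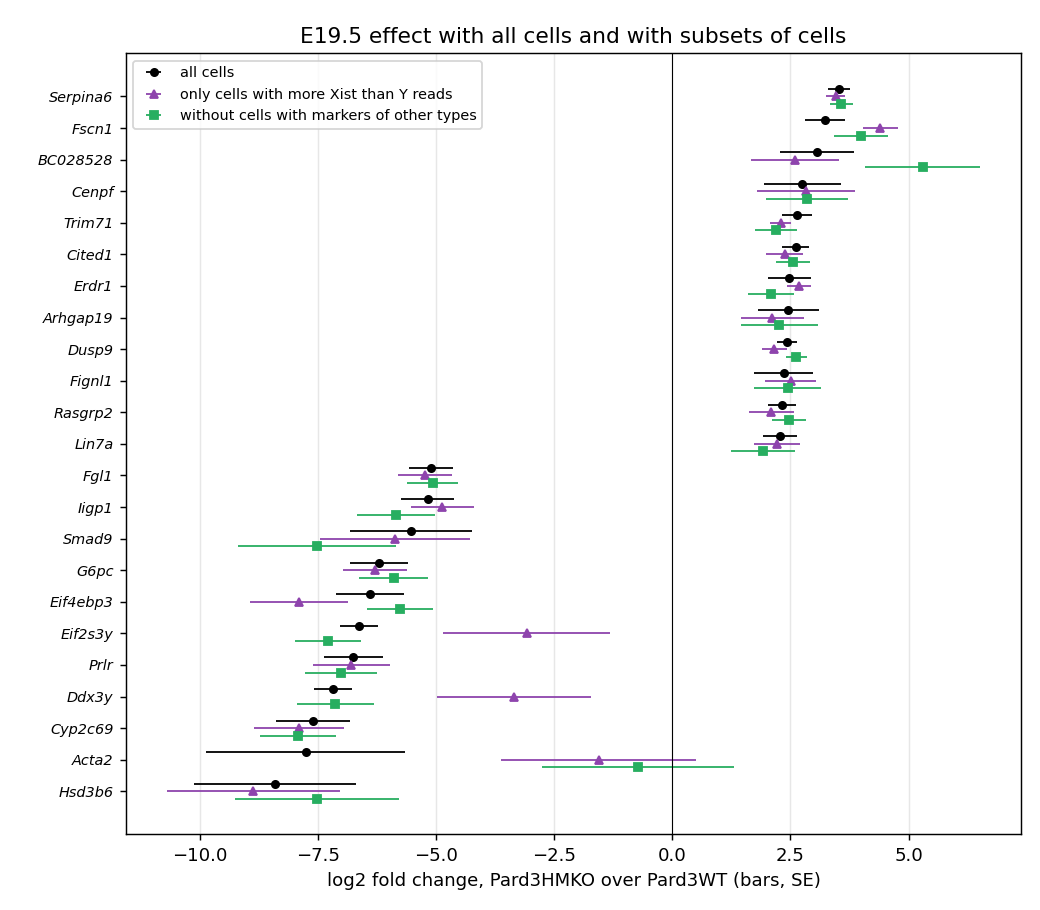
Log2 fold change of Pard3HMKO over Pard3WT with its SE for the same 23 genes, with all cells (black), with only the cells holding more Xist than Y reads (purple) and without cells holding markers of other types (green). Acta2 lies closer to 0 in both subsets and the Y-linked Ddx3y and Eif2s3y in the cells with more Xist than Y reads, BC028528, Smad9, Eif4ebp3 and Fscn1 lie farther from 0 in 1 or both subsets, and the direction is the same in every case.

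The functional lists below were described by how many of their tested members rose or fell, beside the shares over all genes given above and without a test of the list. With each cell weighted alike, where the median of genes with at least 10 CPM was 0.27, rises outnumbered falls in the cholesterol synthesis, urea cycle, Serpina, iron, ER stress, heat shock, clock, junction and ERK feedback lists, in each of which falls outnumbered rises as reported. Glucose production stood out by count. Of the gluconeogenesis and glycogen list's 20 members tested, 0 rose and 12 fell (median log2 fold change -0.85), and the whole list summed to 3855 and 3884 CPM in the Pard3HMKO libraries and 7724 and 7784 CPM in the Pard3WT libraries. Fbp1, fructose-1,6-bisphosphatase, had 215 and 203 CPM in Pard3HMKO, against 2025 and 1829 CPM in Pard3WT (log2 fold change -3.20 ± 0.37, adjusted p = 2.60e-06). Ugp2, which makes UDP-glucose for glycogen, was -0.87 ± 0.14. In the cells with more Xist than Y reads 0 rose and 8 fell among them. Of the glycolysis and hypoxia list's 22 members tested, 1 rose and 7 fell (median -0.41). Bnip3, a mitophagy gene induced by hypoxia, was -1.05 ± 0.13, and the oxygen sensor Egln3 -3.90 ± 0.56, with 2.67 and 0.863 CPM in Pard3HMKO, against 30.8 and 22.9 CPM in Pard3WT.

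Of the fatty acid oxidation and ketogenesis list's 30 members tested, 3 rose and 16 fell (median -0.45). Acot2, a mitochondrial acyl-CoA thioesterase, was among the rises, at 179.7 and 220.3 CPM in Pard3HMKO, against 59.8 and 88.6 CPM in Pard3WT (log2 fold change 1.43 ± 0.19, adjusted p = 3.12e-06). Of lipogenesis genes (21 members tested, 0 rose and 7 fell), the phosphatidate phosphatase Lpin1 changed most among those named, at 25.9 and 32.2 CPM in Pard3HMKO, against 209.6 and 231 CPM in Pard3WT (log2 fold change -2.92 ± 0.43, adjusted p = 5.42e-05). The elongases Elovl5 (-1.22 ± 0.17) and Elovl6 (-0.96 ± 0.16) also fell. Of the cholesterol synthesis list's 24 members tested, 2 rose and 3 fell (median -0.05). Insig1, a brake on the sterol-sensing pathway, had 992 and 1102 CPM in Pard3HMKO, against 2311 and 3022 CPM in Pard3WT (log2 fold change -1.35 ± 0.26, adjusted p = 0.00133), while Mvk, mevalonate kinase, rose (log2 fold change 0.92 ± 0.21, adjusted p = 0.00314). The call was lost for Mvk without Pard3HMKO library 1 or Pard3WT library 1 (adjusted p = 0.053 to 0.147).

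Lipoprotein genes moved in opposite directions. Of the lipoprotein list's 17 members tested, 2 rose and 6 fell (median -0.45). Apoc3, an inhibitor of triglyceride clearance, had 37.6 and 37.5 CPM in Pard3HMKO, against 173 and 164 CPM in Pard3WT (log2 fold change -2.17 ± 0.20, adjusted p = 6.84e-09), with Apoc1 (-0.69 ± 0.14) and Apoc4 (-0.61 ± 0.12) lower as well. Apoc2, the activator of lipoprotein lipase, had 6320.1 and 6102 CPM in Pard3HMKO, against 3625 and 3421 CPM in Pard3WT (log2 fold change 0.82 ± 0.13, adjusted p = 2.22e-04). These are neighbouring genes of 1 cluster, and how reads were assigned between them is not given. The call was lost for Apoc4 without Pard3WT library 1 (adjusted p = 0.0574).

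Bile acid genes fell or were not called: of the list's 23 members tested, 0 rose and 9 fell (median -0.52). Cyp7a1, the rate-limiting enzyme of bile acid synthesis, had 7.77 and 9.79 CPM in Pard3HMKO, against 117 and 118 CPM in Pard3WT (log2 fold change -3.75 ± 0.51, adjusted p = 1.66e-05). Slc10a1, the sodium-dependent bile acid importer, had 112 and 131 CPM in Pard3HMKO, against 477 and 525 CPM in Pard3WT (log2 fold change -2.05 ± 0.31, adjusted p = 9.66e-05), and Nr1h4, the bile acid receptor FXR, 24.0 and 23.4 CPM in Pard3HMKO, against 75.4 and 66.8 CPM in Pard3WT (log2 fold change -1.58 ± 0.27, adjusted p = 1.73e-04). Cyp27a1, of the alternative pathway, was -1.57 ± 0.29. In the cells with more Xist than Y reads 0 rose and 5 fell.

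Of the list of P450 families 2 and 3, with 33 members tested, 0 rose and 13 fell (median -1.20). Besides Cyp2c69 they were led by Cyp2c68 (474 and 509.6 CPM in Pard3HMKO, against 1443 and 1330.2 CPM in Pard3WT), Cyp2c70 (128 and 184 CPM in Pard3HMKO, against 829 and 855 CPM in Pard3WT), which makes muricholic acids in mice, and Cyp2c40 (3.94 and 10.1 CPM in Pard3HMKO, against 167 and 133 CPM in Pard3WT). These genes are close copies of one another, so the split of reads among them is uncertain. Of the steroid metabolism list's 22 members tested, 2 rose and 7 fell. Hsd3b1 had 85.9 and 116 CPM in Pard3HMKO, against 477 and 521 CPM in Pard3WT (log2 fold change -2.31 ± 0.19, adjusted p = 4.69e-10) and Hsd3b3 -1.42 ± 0.24, with the same doubt about copies, while Ugt2b36, a glucuronosyltransferase, rose (log2 fold change 1.51 ± 0.28, adjusted p = 6.41e-04). Of the urea cycle and amino acid list's 27 members tested, 2 rose and 4 fell (median -0.02), Arg1, arginase, had 287 and 324 CPM in Pard3HMKO, against 699 and 725 CPM in Pard3WT (log2 fold change -1.22 ± 0.20, adjusted p = 2.00e-04) and Kmo, of tryptophan breakdown, 45.9 and 52.4 CPM in Pard3HMKO, against 22.5 and 24.9 CPM in Pard3WT (log2 fold change 1.05 ± 0.21, adjusted p = 0.00122).

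**Figure D3:**
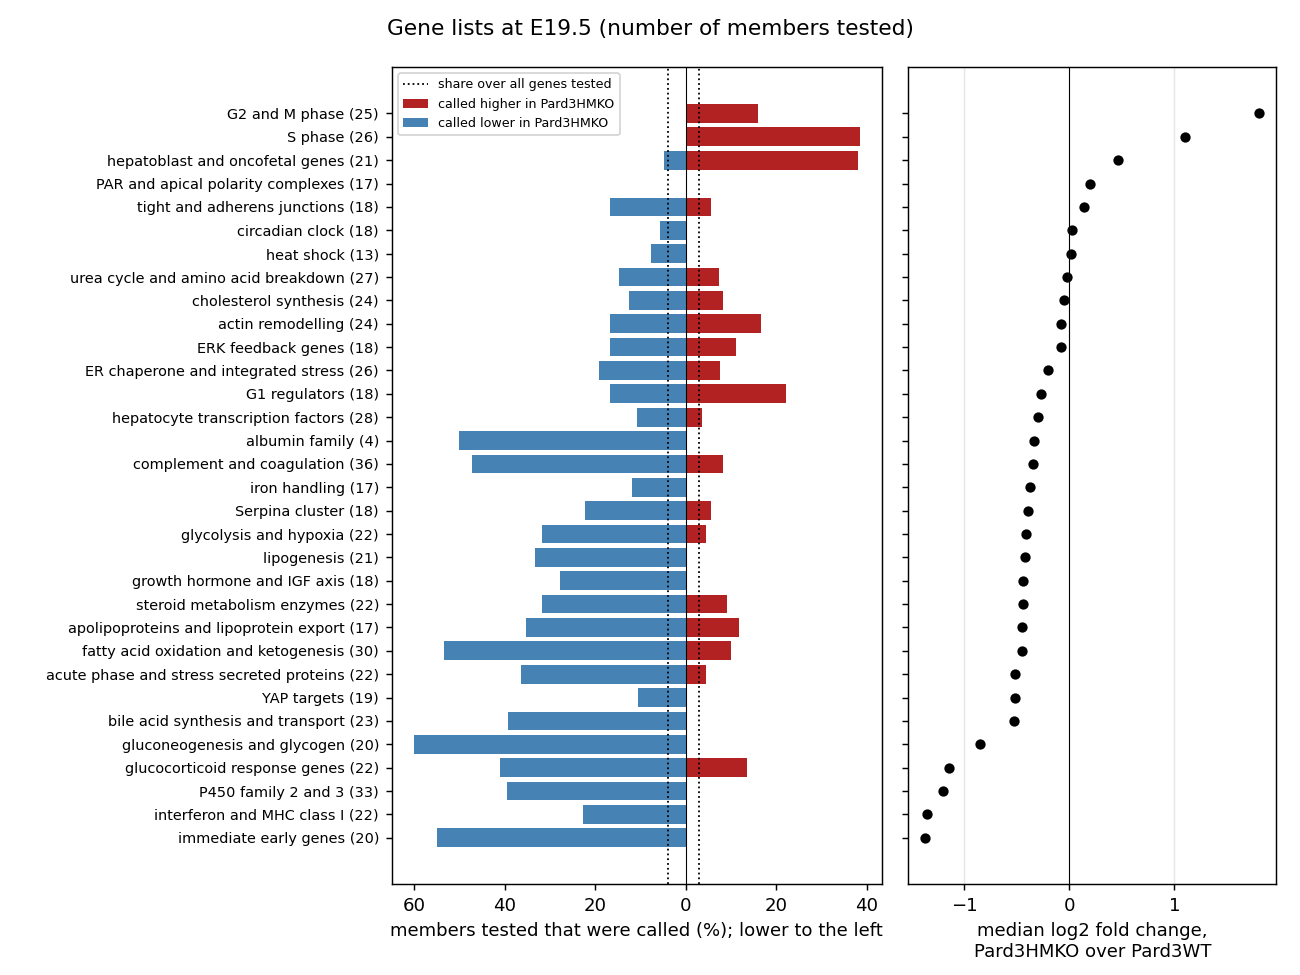
For 32 gene lists, the left panel shows the percent of members tested that were called higher (red, to the right) or lower (blue, to the left) in Pard3HMKO, and dotted lines mark the shares over all genes, 3.01% and 3.94%. The right panel shows the median log2 fold change of each list, from 1.81 for G2 and M phase to -1.37 for immediate early genes.

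Plasma proteins were lower in part. Of the complement and coagulation list's 36 members tested, 3 rose and 17 fell. The list summed to 29613 and 31281 CPM in the Pard3HMKO libraries and 63918 and 67253 CPM in the Pard3WT libraries. The fibrinogen chains were the most abundant of those named: Fgb had 5379 and 5785 CPM in Pard3HMKO, against 18230.0 and 19770.1 CPM in Pard3WT (log2 fold change -1.77 ± 0.16, adjusted p = 9.48e-08), Fgg 3409 and 3935 CPM in Pard3HMKO, against 11889 and 12979 CPM in Pard3WT (log2 fold change -1.76 ± 0.16, adjusted p = 8.29e-08) and Fga 3104 and 3238 CPM in Pard3HMKO, against 10151 and 10207 CPM in Pard3WT (log2 fold change -1.68 ± 0.17, adjusted p = 3.29e-07). In the cells with more Xist than Y reads 1 rose and 12 fell.

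Of the acute phase list's 22 members tested, 1 rose and 8 fell (median -0.51). Apcs, serum amyloid P, had 375 and 405 CPM in Pard3HMKO, against 2649.9 and 2047 CPM in Pard3WT (log2 fold change -2.59 ± 0.24, adjusted p = 8.05e-08). Ahsg, fetuin A, had 21292 and 20612 CPM in Pard3HMKO, against 43767 and 44737 CPM in Pard3WT (log2 fold change -1.08 ± 0.19, adjusted p = 5.73e-04), and its relative Fetub 74.9 and 56.6 CPM in Pard3HMKO, against 451 and 449 CPM in Pard3WT (log2 fold change -2.77 ± 0.37, adjusted p = 2.16e-05). Of the Serpina list's 18 members tested, 1 rose and 4 fell: Serpina6 was the rise (with each cell weighted alike 6 rose and 4 fell), and Serpina1e (3674 and 3845 CPM in Pard3HMKO, against 13721 and 15403 CPM in Pard3WT, log2 fold change -1.95 ± 0.23, adjusted p = 5.05e-06) and Serpina3n (9.63 and 9.23 CPM in Pard3HMKO, against 79.7 and 78.1 CPM in Pard3WT, log2 fold change -3.06 ± 0.46, adjusted p = 8.26e-05) were among the falls. The Serpina1 genes and the Serpina3 genes are each related copies, and how reads were split among them is not given. Of the 4 albumin family genes, 0 rose and 2 fell, Alb and Gc (log2 fold change -0.85 ± 0.22, adjusted p = 0.0154), the vitamin D carrier. Of the iron list's 17 members tested, 0 rose and 2 fell, namely Fth1 (-0.65 ± 0.11), the ferritin heavy chain, and Tfrc (-0.90 ± 0.24), the transferrin receptor. No longer called were Gc without any 1 of the 4 libraries (adjusted p = 0.0586 to 0.122) and Tfrc without Pard3HMKO library 1 or Pard3WT library 2 (adjusted p = 0.227 to 0.249). Rbp4, the retinol carrier of the hepatocyte marker list, was higher, at 4719.8 and 4873 CPM in Pard3HMKO, against 3469 and 3489 CPM in Pard3WT (log2 fold change 0.46 ± 0.07, adjusted p = 1.07e-04).

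Genes of hormonal growth control fell without a rise. Of the growth hormone and insulin-like growth factor list's 18 members tested, 0 rose and 5 fell. Igfbp1, an insulin-suppressed binding protein, had 762 and 729 CPM in Pard3HMKO, against 3968 and 4510.1 CPM in Pard3WT (log2 fold change -2.51 ± 0.33, adjusted p = 2.00e-05). Igfbp2 had 9.06 and 9.99 CPM in Pard3HMKO, against 125.8 and 107 CPM in Pard3WT (log2 fold change -3.62 ± 0.45, adjusted p = 9.33e-06) and Igf1 itself 2.85 and 3.72 CPM in Pard3HMKO, against 42.3 and 54.6 CPM in Pard3WT (log2 fold change -3.89 ± 0.51, adjusted p = 1.92e-05). Of the transcription factor list's 28 members tested, 1 rose and 3 fell. Cebpa (log2 fold change -0.56 ± 0.12, adjusted p = 0.00337) and Ppara (log2 fold change -1.01 ± 0.23, adjusted p = 0.00441), the regulator of fatty acid oxidation genes, were lower, and Foxa3, whose promoter drives the Cre, was higher, at 188 and 183 CPM in Pard3HMKO, against 115 and 128 CPM in Pard3WT (log2 fold change 0.61 ± 0.12, adjusted p = 6.52e-04). Calls were lost for Cebpa without Pard3HMKO library 2 (adjusted p = 0.106) and Ppara without Pard3HMKO library 1 or Pard3WT library 1 (adjusted p = 0.0515 to 0.1).

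Many immediate early and glucocorticoid response genes fell. Of the immediate early genes' 20 members tested, 0 rose and 11 fell (median -1.37), Jun had 96.7 and 101 CPM in Pard3HMKO, against 359 and 346 CPM in Pard3WT (log2 fold change -1.83 ± 0.21, adjusted p = 1.22e-07), Atf3 8.27 and 8.03 CPM in Pard3HMKO, against 224 and 200.4 CPM in Pard3WT (log2 fold change -4.70 ± 0.77, adjusted p = 2.52e-04), Zfp36 -1.34 ± 0.19 and Ier2 -1.17 ± 0.18. Of the glucocorticoid response list's 22 members tested, 3 rose and 9 fell. The falls included Pdk4, a kinase that spares glucose, at 3.91 and 4.78 CPM in Pard3HMKO, against 35.9 and 34.2 CPM in Pard3WT, and Errfi1, an inhibitor of EGF receptors, at 118 and 138 CPM in Pard3HMKO, against 302 and 287 CPM in Pard3WT. Of the ER chaperone and stress list's 26 members tested, 2 rose and 5 fell. Phgdh, of serine synthesis, rose (log2 fold change 1.26 ± 0.14, adjusted p = 7.58e-08), while Atf5 (-0.80 ± 0.11), Dnajc3 (-0.69 ± 0.11) and the chaperone Hspa5 (-0.46 ± 0.12) fell. Of the heat shock list's 13 members tested, 0 rose and 1 fell (Dnajb1, -1.43 ± 0.26), with a median of 0.02, and with each cell weighted alike 6 rose and 1 fell. Of the clock list's 18 members tested, 0 rose and 1 fell (Bhlhe40, -0.81 ± 0.25). Of the interferon and class I list's 22 members tested, 0 rose and 5 fell, with Igtp at 7.90 and 9.63 CPM in Pard3HMKO, against 49.5 and 51.5 CPM in Pard3WT (log2 fold change -2.53 ± 0.36, adjusted p = 8.06e-06), Isg15 -4.77 ± 1.26 and Usp18 -1.56 ± 0.43. Calls were lost for Hspa5 without any 1 of the 4 libraries (adjusted p = 0.0735 to 0.141), Bhlhe40 without any 1 of the 4 libraries (adjusted p = 0.112 to 0.321), Isg15 without either Pard3HMKO library or Pard3WT library 1 (adjusted p = 0.0506 to 0.196) and Usp18 without either Pard3HMKO library or Pard3WT library 1 (adjusted p = 0.163 to 0.219).

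Among the functional lists, the hepatoblast and S phase lists held the largest shares of rises. The S phase and G2 and M phase lists had the highest medians. Of the hepatoblast and oncofetal list's 21 members tested, 8 rose and 1 fell (median 0.47), Dlk1, a surface protein of hepatoblasts, had 1449.6 and 1314 CPM in the Pard3HMKO libraries, against 443 and 443 CPM in the Pard3WT libraries (log2 fold change 1.64 ± 0.09, adjusted p = 1.35e-14). Igf2bp1, an RNA-binding protein of fetal tissue, had 67.5 and 53.4 CPM in Pard3HMKO, against 21.7 and 21.4 CPM in Pard3WT (log2 fold change 1.49 ± 0.21, adjusted p = 5.63e-06). The exception was Grb10, an imprinted adaptor that dampens insulin signals (log2 fold change -0.55 ± 0.09, adjusted p = 1.44e-04). In the cells with more Xist than Y reads 4 rose and 1 fell.

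All 26 S phase genes and all 25 G2 and M phase genes had positive log2 fold changes, with medians of 1.11 and 1.81. Of them 10 and 4 rose and 0 fell. Tk1, thymidine kinase, had 82.4 and 90.1 CPM in Pard3HMKO, against 41.8 and 38.3 CPM in Pard3WT (log2 fold change 1.11 ± 0.19, adjusted p = 1.18e-04), Rrm1, of nucleotide synthesis, 41.2 and 52.9 CPM in Pard3HMKO, against 23.4 and 17.8 CPM in Pard3WT (log2 fold change 1.19 ± 0.30, adjusted p = 0.00975), and Cdc6, which loads the replicative helicase, 3.00 and 6.17 CPM in Pard3HMKO, against 0.570 and 0.378 CPM in Pard3WT (log2 fold change 3.27 ± 0.76, adjusted p = 0.00499). Ccnb2, a mitotic cyclin, had 48.5 and 36.7 CPM in Pard3HMKO, against 14.4 and 10.8 CPM in Pard3WT (log2 fold change 1.76 ± 0.41, adjusted p = 0.00719), and Plk1, a mitotic kinase, 15.3 and 13.01 CPM in Pard3HMKO, against 3.54 and 2.52 CPM in Pard3WT (log2 fold change 2.23 ± 0.68, adjusted p = 0.0493). In the cells with more Xist than Y reads 7 S phase genes rose, with a median of 0.86 over the list, and 0 G2 and M phase genes did, with a median of 1.71. The 4 G2 and M phase calls were Cenpf, Ccnb2, Ccna2 (log2 fold change 1.86 ± 0.56, adjusted p = 0.0452) and Plk1, of which Ccna2 and Plk1 lost theirs with RLE size factors and none of the 4 was called without the marked cells. Calls were lost for Cenpf without any 1 of the 4 libraries (adjusted p = 0.0846 to 0.302), Ccna2 without any 1 of the 4 libraries (adjusted p = 0.101 to 0.355), Plk1 without any 1 of the 4 libraries (adjusted p = 0.133 to 0.31) and Ccnb2 without Pard3HMKO library 1 or Pard3WT library 2 (adjusted p = 0.0931 to 0.126). Among the S phase genes named they were lost for Rrm1 without Pard3HMKO library 2 or Pard3WT library 2 (adjusted p = 0.135 to 0.163) and Cdc6 without Pard3HMKO library 2 or either Pard3WT library (adjusted p = 0.0538 to 0.102). Other tools called more: DESeq2 14 S phase and 10 G2 and M phase genes, and limma with each cell weighted alike 18 and 14. Of the G1 list's 18 members tested, 4 rose and 3 fell. Ccnd1, cyclin D1, had 30.4 and 26.9 CPM in Pard3HMKO, against 11.6 and 6.52 CPM in Pard3WT (log2 fold change 1.67 ± 0.22, adjusted p = 2.47e-06) and Ccnd3 28.3 and 32.7 CPM in Pard3HMKO, against 13.46 and 17.3 CPM in Pard3WT (log2 fold change 0.99 ± 0.22, adjusted p = 0.00354), while Myc was lower, at 6.51 and 8.53 CPM in Pard3HMKO, against 18.5 and 20.9 CPM in Pard3WT (log2 fold change -1.39 ± 0.34, adjusted p = 0.00699). Of these, calls were lost for Ccnd3 without Pard3HMKO library 2 or Pard3WT library 1 (adjusted p = 0.062 to 0.113) and Myc without Pard3HMKO library 1 or Pard3WT library 2 (adjusted p = 0.0614 to 0.148).

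Of 17 tested genes of the PAR and apical complexes 0 rose and 0 fell in edgeR's test (median 0.20), where 0 had an unadjusted p under 0.05, and 0 in DESeq2, while 2, Pard3 and Cdc42 (0.39 ± 0.11, adjusted p = 0.0233), rose with each cell weighted alike. Lin7a, described above, is not in that list. Of the junction list's 18 members tested, 1 rose and 3 fell. Cldn1, a claudin of hepatocyte junctions, had 279.9 and 274 CPM in Pard3HMKO, against 454 and 425 CPM in Pard3WT (log2 fold change -0.67 ± 0.17, adjusted p = 0.0116), Cldn2 1.93 and 2.36 CPM in Pard3HMKO, against 6.43 and 12.9 CPM in Pard3WT (log2 fold change -2.18 ± 0.62, adjusted p = 0.0264) and Cldn3 2.52 and 2.32 CPM in Pard3HMKO, against 6.01 and 8.85 CPM in Pard3WT (log2 fold change -1.61 ± 0.51, adjusted p = 0.0495). Ctnnb1, beta-catenin, was slightly higher (log2 fold change 0.43 ± 0.12, adjusted p = 0.0154), a call lost with RLE size factors. The 4 genes were not called in the cells with more Xist than Y reads, at -0.70 for Cldn1, -2.13 for Cldn2, -1.92 for Cldn3 and 0.36 for Ctnnb1. Calls were also lost for Cldn1 without either Pard3HMKO library or Pard3WT library 1 (adjusted p = 0.0914 to 0.108), Cldn2 without either Pard3HMKO library or Pard3WT library 2 (adjusted p = 0.146 to 0.28), Cldn3 without any 1 of the 4 libraries (adjusted p = 0.084 to 0.308) and Ctnnb1 without either Pard3HMKO library or Pard3WT library 1 (adjusted p = 0.0547 to 0.227).

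Of the actin list's 24 members tested, 4 rose and 4 fell. Tmsb10, a monomer-binding thymosin, had 789.8 and 811 CPM in Pard3HMKO, against 2132 and 1799.6 CPM in Pard3WT (log2 fold change -1.296 ± 0.24, adjusted p = 7.29e-04) and S100a10, an annexin partner, 10.8 and 14.4 CPM in Pard3HMKO, against 106.2 and 65.9 CPM in Pard3WT (log2 fold change -2.77 ± 0.48, adjusted p = 4.01e-04), against Fscn1 and Tagln2 (0.71 ± 0.19) among the rises. Of the YAP target list's 19 members tested, 0 rose and 2 fell, Cyr61 (16.54 and 30.9 CPM in Pard3HMKO, against 116 and 101 CPM in Pard3WT, log2 fold change -2.20 ± 0.52, adjusted p = 0.00841) and Gadd45b (-1.63 ± 0.40). Of the ERK feedback list's 18 members tested, 2 rose and 3 fell: Etv5, an ETS factor, had 6.73 and 4.08 CPM in Pard3HMKO, against 0.684 and 1.73 CPM in Pard3WT (log2 fold change 2.15 ± 0.46, adjusted p = 0.002), and Phlda1 (4.46 and 5.18 CPM in Pard3HMKO, against 31.0 and 28.7 CPM in Pard3WT) and the phosphatase Dusp5 (1.31 and 1.06 CPM in Pard3HMKO, against 15.3 and 14.3 CPM in Pard3WT) fell. Calls were lost for Tagln2 without any 1 of the 4 libraries (adjusted p = 0.0863 to 0.117), Cyr61 without Pard3HMKO library 1 or Pard3WT library 1 (adjusted p = 0.0613 to 0.181) and Gadd45b without either Pard3HMKO library (adjusted p = 0.0786 to 0.0993). They were also lost for Etv5 without Pard3HMKO library 1 or Pard3WT library 1 (adjusted p = 0.0646 to 0.102) and Dusp5 without either Pard3HMKO library (adjusted p = 0.091 to 0.114).

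Markers of other cell types were uneven between libraries, and their part in the results above was not tested beyond the values without marked cells. Erythroid markers summed to 1178 and 828 CPM in the Pard3HMKO libraries and 2967 and 612 CPM in the Pard3WT libraries, with 0 of 14 called by edgeR, DESeq2 or limma and 0 at an unadjusted p under 0.05. The macrophage and myeloid markers summed to 131 and 78.9 CPM in the Pard3HMKO libraries and 180.4 and 256 CPM in the Pard3WT libraries, with 1 of 16 called lower, Mpo, of which 1 cell held 95.2% of the reads in Pard3WT library 2. The call was lost for Mpo without either Pard3HMKO library or Pard3WT library 2 (adjusted p = 0.0846 to 0.54). Endothelial markers summed to 25.4 and 26.2 CPM in the Pard3HMKO libraries and 82.4 and 23.5 CPM in the Pard3WT libraries, with 0 of 15 called by edgeR, DESeq2 or limma and 2 lower at an unadjusted p under 0.05. Stellate and mesenchymal markers summed to 80.1 and 75.4 CPM in the Pard3HMKO libraries and 166 and 41.4 CPM in the Pard3WT libraries, with 2 of 14 lower (Acta2, Tagln) and 1 higher, Reln, at 75.9 and 70.2 CPM in Pard3HMKO, against 49.0 and 36.4 CPM in Pard3WT (log2 fold change 0.78 ± 0.21, adjusted p = 0.0154). No longer called were Tagln without either Pard3HMKO library or Pard3WT library 1 (adjusted p = 0.103 to 0.301) and Reln without either Pard3HMKO library or Pard3WT library 2 (adjusted p = 0.0604 to 0.272). Of cholangiocyte markers 1 of 10 rose, Prom1, at 60.1 and 49.0 CPM in Pard3HMKO, against 22.4 and 19.2 CPM in Pard3WT (log2 fold change 1.39 ± 0.26, adjusted p = 3.65e-04), and 3 had no read in any library. Of 9 megakaryocyte markers 0 were called by edgeR, DESeq2 or limma, and 1 was higher at an unadjusted p under 0.05.

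Within the libraries, the differences in Serpina6, Dlk1, Fbp1 and Fgl1 were present in the median cell. In reads per 1000000 of the cell, the median for Serpina6 was 3157 and 2358 in the Pard3HMKO libraries and 183 and 142 in the Pard3WT libraries, and for Dlk1 1252 and 1101 in the Pard3HMKO libraries and 322 and 327 in the Pard3WT libraries. For Fbp1 it was 94.5 and 138 in the Pard3HMKO libraries and 1545 and 1292 in the Pard3WT libraries, with quartiles of 21.4 to 289.9 in Pard3HMKO library 1 and 1139 to 2016 in Pard3WT library 1. For Fgl1 it was 2.82 and 6.602 in the Pard3HMKO libraries and 386 and 426 in the Pard3WT libraries. After thinning every cell to 100000 reads, which left out no cell, Fgl1 was found in 30.9% and 47.7% of Pard3HMKO cells and 100.0% and 100.0% of Pard3WT cells. Before thinning the shares were 58.8% and 63.1% of Pard3HMKO cells and 100.0% and 100.0% of Pard3WT cells. Thinned cells with a Prlr read were 10.3% and 6.15% of Pard3HMKO cells and 83.6% and 91.5% of Pard3WT cells, and with a G6pc read 5.88% and 12.3% of Pard3HMKO cells and 52.5% and 59.1% of Pard3WT cells. Trim71 was found in 77.9% and 80.0% of Pard3HMKO cells and 37.7% and 25.4% of Pard3WT cells after thinning, and Fscn1 in 55.9% and 49.2% of Pard3HMKO cells and 4.92% and 8.45% of Pard3WT cells.

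Mitotic genes were read in a minority of cells in both groups. Thinned shares for Ccnb2 were 39.7% and 40.0% of Pard3HMKO cells and 19.7% and 15.49% of Pard3WT cells, and for Cenpf 26.5% and 15.4% of Pard3HMKO cells and 6.56% and 8.45% of Pard3WT cells. In Pard3HMKO library 2, 1 cell held 61.6% of the Cenpf reads. Tk1 was more widespread, in 94.1% and 90.8% of Pard3HMKO cells and 62.3% and 70.4% of Pard3WT cells. A median of 12 of the 26 S phase genes had a read per thinned cell in each Pard3HMKO library, against 9 and 8 in the Pard3WT libraries. For the 25 G2 and M phase genes the medians were 6 in each Pard3HMKO library and 4 and 3 in the Pard3WT libraries. These shares describe cells of 2 libraries a group and carry no test.

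**Figure D4:**
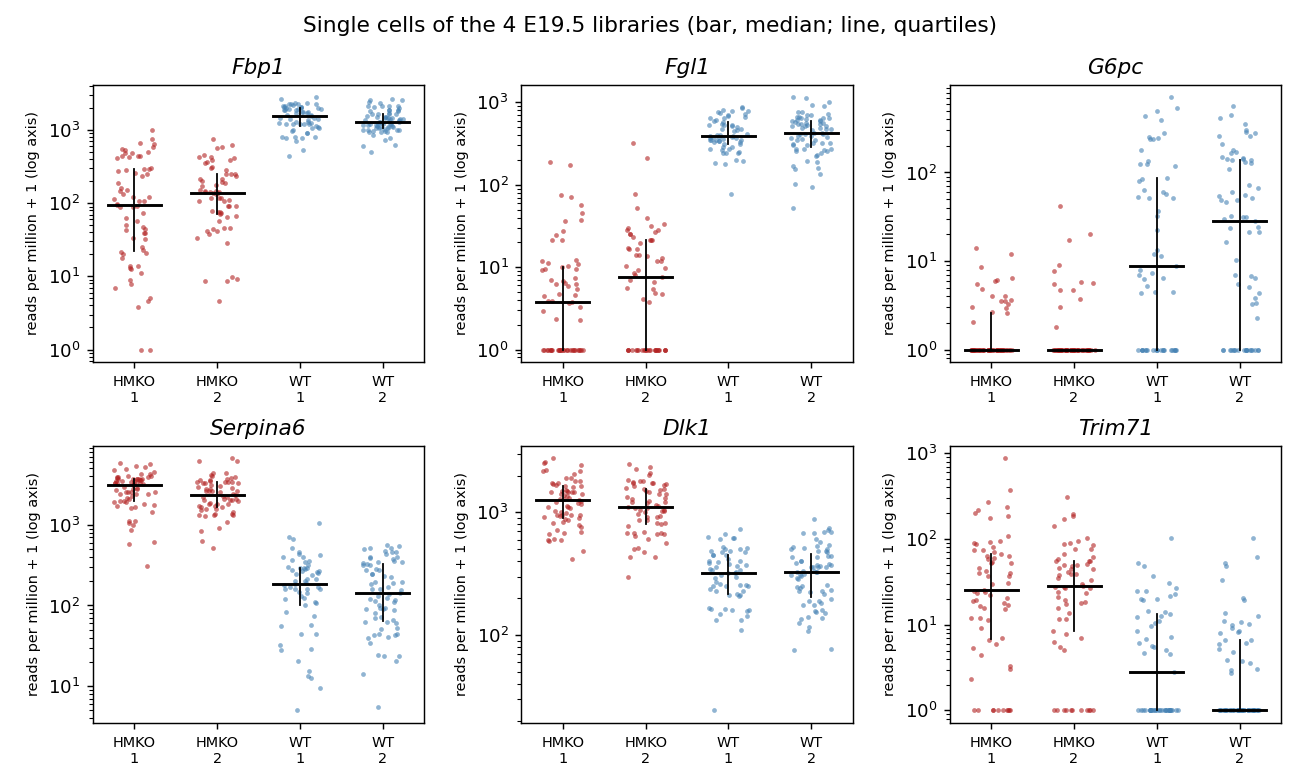
Reads per 1000000 plus 1 (log axis) of 6 genes in every cell of the 2 Pard3HMKO libraries (red) and the 2 Pard3WT libraries (blue), with the median as a bar and the quartiles as a line. The quartile ranges of Fbp1, Fgl1, Serpina6 and Dlk1 do not overlap between the groups, while G6pc and Trim71 have cells without a read in all 4 libraries.

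The E19.5 differences were set against those of the same line at E17.5 and at birth (P0), each with its own 2 libraries a group. E17.5 Pard3WT cells had Y reads and almost no Xist reads and E17.5 Pard3HMKO cells mostly Y reads, so sex composition differs between these ages too. Its part in the age differences was not tested. The effect at E19.5 minus that at E17.5 was called positive for 418 genes (2.25%) and negative for 254 (1.37%), together 3.62%. Dlk1 had an effect of 1.64 ± 0.09 at E19.5, against 0.997 ± 0.09 at E17.5 (difference 0.65 ± 0.13, adjusted p = 0.00165), and at E17.5 it had 1421 and 1455 CPM in Pard3HMKO and 724 and 717 CPM in Pard3WT. Between these ages its level thus differed little in Pard3HMKO and was lower at E19.5 in Pard3WT. Serpina6 likewise had 3353 and 3642 CPM in Pard3HMKO and 1099 and 666 CPM in Pard3WT at E17.5 (difference 1.54 ± 0.29, adjusted p = 0.00232).

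G6pc had 43.8 and 18.2 CPM in Pard3HMKO and 70.6 and 68.7 CPM in Pard3WT at E17.5 and the large gap at E19.5 given above (difference -5.04 ± 0.74, adjusted p = 1.93e-04). Cyp2c69, the largest negative difference, had 139 and 77.9 CPM in Pard3HMKO and 58.9 and 86.6 CPM in Pard3WT at E17.5 (-8.19 ± 0.94, adjusted p = 6.98e-06). Hsd3b6 had 14.7 and 6.52 CPM in Pard3HMKO and 5.64 and 26.1 CPM in Pard3WT at E17.5 (-7.82 ± 2.02, adjusted p = 0.0344), and Cyp4a12a, a fatty acid hydroxylase, 42.0 and 29.5 CPM in Pard3HMKO and 99.5 and 114 CPM in Pard3WT (-6.51 ± 1.76, adjusted p = 0.0423). At E19.5 Cyp4a12a had 0.0495 and 0 CPM in Pard3HMKO, against 8.97 and 8.60 CPM in Pard3WT. All 4 had less at E19.5 than at E17.5 in Pard3HMKO, while in Pard3WT G6pc, Cyp2c69 and Hsd3b6 had more at E19.5 and Cyp4a12a less. Xist, also among the largest negative differences, moves with the sex composition (-6.42 ± 0.96, adjusted p = 1.44e-04). Fbp1, with 899.8 and 563 CPM in Pard3HMKO and 2137 and 2454 CPM in Pard3WT at E17.5, did not pass the test of the difference (-1.55 ± 0.48, adjusted p = 0.0777). The differences for Hsd3b6 and Cyp4a12a were not called without any 1 of the 8 libraries, at adjusted p of 0.058 to 0.169 for Hsd3b6 and 0.0794 to 0.206 for Cyp4a12a.

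The largest positive differences were Erdr1 (4.27 ± 0.63, adjusted p = 1.25e-04), C9 (2.71 ± 0.68, adjusted p = 0.0218), Tnnc1 (2.70 ± 0.22, adjusted p = 7.00e-10) and Ces1e (2.69 ± 0.61, adjusted p = 0.00752). Tnnc1, a troponin C of slow muscle, had 325 and 373 CPM in Pard3HMKO, against 84.7 and 79.5 CPM in Pard3WT at E19.5 and 130.4 and 108 CPM in Pard3HMKO and 170.0 and 195 CPM in Pard3WT at E17.5. C9, the terminal complement component, had 47.5 and 41.3 CPM in Pard3HMKO, against 11.4 and 17.0 CPM in Pard3WT at E19.5 and 10.3 and 7.46 CPM in Pard3HMKO and 21.2 and 16.02 CPM in Pard3WT at E17.5. Both were thus higher in Pard3HMKO at E19.5 and lower at E17.5. The E19.5 rise of C9 was not called without any 1 of the 4 E19.5 libraries (log2 fold change 1.38 to 1.965). C9's age difference was not called without E17.5 Pard3HMKO library 2, E17.5 Pard3WT library 1, either E19.5 Pard3HMKO library or E19.5 Pard3WT library 1. Its values were then 2.45 to 2.80. That of Ces1e was not called without E17.5 Pard3HMKO library 1, E17.5 Pard3WT library 1 or E19.5 Pard3WT library 2 (2.16 to 2.48). The difference for Alb was also positive: its effect was -0.44 ± 0.12 at E19.5 and -1.29 ± 0.12 at E17.5 (difference 0.85 ± 0.17, adjusted p = 0.00382), and that of Afp 0.14 ± 0.13 at E19.5 and -1.12 ± 0.13 at E17.5 (difference 1.26 ± 0.18, adjusted p = 1.21e-04). Complement and coagulation genes had 13 positive and 1 negative difference among 36, with medians of the effect of -0.34 at E19.5 and -0.97 at E17.5.

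**Figure D5:**
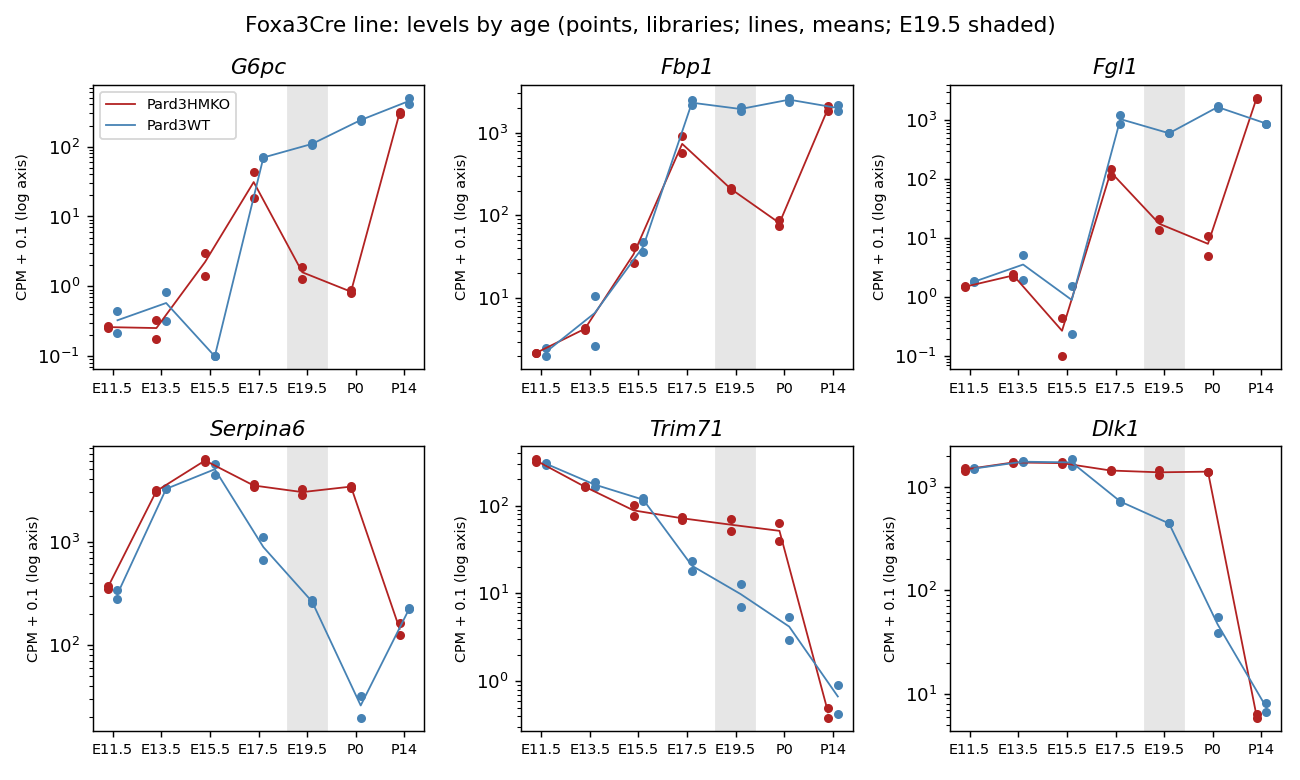
CPM plus 0.1 (log axis) of 6 genes by age in Pard3HMKO (red) and Pard3WT (blue) of the Foxa3Cre line, with a point per library and lines through the means; E19.5 is shaded. At E19.5 and P0 G6pc, Fbp1 and Fgl1 are low and Serpina6, Trim71 and Dlk1 high in Pard3HMKO, and at P14 Dlk1 is low in both groups.

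At P0 the differences were wider for some of these genes. This comparison shares the E19.5 libraries with the previous one. At P0 the Pard3HMKO libraries held 734 and 582 Xist reads beside 1131 and 1005 Y reads, and the Pard3WT libraries 15 and 22 Xist reads beside 4223 and 3984 Y reads, so that Y reads prevailed in Pard3WT at this age. The part of this in the differences was not tested. The effect at P0 minus that at E19.5 was called positive for 820 genes (4.42%) and negative for 1081 (5.82%), together 10.2%. Serpina6 had 3481 and 3344 CPM in Pard3HMKO and 19.4 and 31.9 CPM in Pard3WT at P0 (3.53 ± 0.31, adjusted p = 1.72e-08), and Dlk1 1400.4 and 1405 CPM in Pard3HMKO and 38.6 and 54.7 CPM in Pard3WT (3.27 ± 0.13, adjusted p = 2.33e-18). Fgl1 had 11.05 and 4.89 CPM in Pard3HMKO and 1741 and 1617 CPM in Pard3WT (-2.58 ± 0.59, adjusted p = 0.00493). G6pc, at 0.780 and 0.698 CPM in Pard3HMKO and 230.1 and 248.8 CPM in Pard3WT, did not pass the test of this difference (-2.11 ± 0.88, adjusted p = 0.154). Scd2, a fatty acid desaturase, had 952 and 825 CPM in Pard3HMKO and 8.77 and 6.70 CPM in Pard3WT at P0 (7.09 ± 0.32, adjusted p = 1.01e-14), and was not called at E19.5 (923 and 802 CPM in Pard3HMKO, against 1057 and 994 CPM in Pard3WT). Nr0b2, the bile acid-induced repressor SHP, had 0.123 and 0.107 CPM in Pard3HMKO and 67.9 and 74.8 CPM in Pard3WT at P0 and 1.41 and 3.15 CPM in Pard3HMKO, against 1.37 and 0.787 CPM in Pard3WT at E19.5 (-10.29 ± 2.46, adjusted p = 0.00667).

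The other large negative values were Ankrd55 (-10.32 ± 1.68, adjusted p = 4.13e-05), Slc51b, a bile acid exporter subunit (-9.59 ± 2.58, adjusted p = 0.0155), and the hormone gene Fgf21 (-9.04 ± 1.28, adjusted p = 4.65e-05), and the positive ones Acta2, Kcnip1 and Zcchc5. For Ankrd55 and Slc51b in Pard3HMKO, and for Acta2, Kcnip1 and Zcchc5 in Pard3WT, no read was present at P0, so that their fitted differences depend on the prior count and are no bounds. Slc51b had 0 and 0 CPM in Pard3HMKO and 12.8 and 12.6 CPM in Pard3WT at P0 and Fgf21 0.287 and 0 CPM in Pard3HMKO and 84.6 and 41.2 CPM in Pard3WT. At E19.5 neither exceeded 0.441 CPM in any library. Zcchc5 had 2.26 and 3.76 CPM in Pard3HMKO and 0 and 0 CPM in Pard3WT at P0 and 15.52 and 14.1 CPM in Pard3HMKO, against 8.10 and 8.09 CPM in Pard3WT at E19.5, and Kcnip1 10.0 and 14.0 CPM in Pard3HMKO and 0 and 0 CPM in Pard3WT at P0 and at most 0.567 CPM in a library at E19.5. The difference was not called for Acta2 without E19.5 Pard3WT library 1 (9.13, adjusted p = 0.0843), for Kcnip1 without E19.5 Pard3WT library 2 (5.31, adjusted p = 1), for Nr0b2 without P0 Pard3HMKO library 1 (adjusted p = 0.0503), or for Slc51b without E19.5 Pard3HMKO library 1 or either P0 Pard3HMKO library (adjusted p = 0.0549 to 0.18). By list, 24 of 30 fatty acid oxidation, 15 of 17 lipoprotein and 15 of 23 bile acid genes had a negative difference with 0 positive, and 20 of 24 cholesterol synthesis genes a positive one with 0 negative. Marked cells were 80% and 100% of the P0 Pard3HMKO cells and 74.1% and 46.7% of the P0 Pard3WT cells, mostly by erythroid markers, which leaves 6 unmarked cells in 1 Pard3HMKO library and 0 in the other. The fit without marked cells rests on those 6 cells for P0 Pard3HMKO, too few to test the part of marked cells in the P0 values.

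A further control of this age comes from B6C3F1 wild-type mice without Cre, with 51 and 67 cells, which differ in strain. Their levels differed from Pard3HMKO in the same direction as Pard3WT for most of the leading genes: G6pc had 287 and 273 CPM, Cyp2c69 859.5 and 823, Prlr 93.5 and 104, Fgl1 425 and 392.4, Serpina6 261 and 287, Trim71 2.91 and 2.103 and Dlk1 400.1 and 419 CPM. Of these, G6pc and Cyp2c69 lay above both Pard3WT libraries, and Trim71, Fgl1 and Dlk1 below both. Against B6C3F1 the log2 fold change of Fgl1 was -4.55 ± 0.45. For other genes the levels were also unlike those of Pard3WT. Alb had 52959 and 53601 CPM there, below both Foxa3Cre groups, and Atf3 had 3.76 and 8.72 CPM, near the Pard3HMKO level. Insig1 had 230.3 and 177 CPM, Jun 164 and 158 CPM and Rbp4 12068 and 11859.6 CPM. Tmsb10 (1029 and 942 CPM), S100a10 (15.3 and 17.3 CPM) and Ier2 (129 and 114 CPM) also lay closer to Pard3HMKO than to Pard3WT. Zfp36 (175 and 164 CPM) was near the Pard3WT level, and Tagln2 (27.9 and 32.9 CPM) below both Foxa3Cre groups. With B6C3F1 in place of Pard3WT, 319 of the 559 risen genes and 479 of the 732 fallen genes were called in the same direction, and 21 and 77 in the opposite one.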

How the data were processed

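The authors deposited a table of whole-number read counts for 40824 genes in 4264 single cells, per the file headers. Reads were trimmed with Trimmomatic 0.39 and aligned with HISAT2 2.1.0 to GRCm38, per the submitters' processing notes, and neither the counting tool nor any merging of copied molecules is given in the sources used here. The open chromatin peak lists carry a score per peak as deposited by the authors, per the file headers, and MACS 1.4.2 is named in the submitters' processing notes. Here counts were summed over the cells of each library, for 2115 cells in 46 libraries, and 2149 cell columns of other experiments were not used. The 92 spike-in entries, with 17 reads, were left out.

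In edgeR 4.0.16 (R 4.3.3), 44 libraries of in vivo cells shared a quasi-likelihood fit by group, with TMM factors, 18572 genes kept and 22 residual degrees of freedom. These were all Foxa3Cre and AlfpCre libraries from E11.5 to P14. Besides the Pard3 groups they included YapWT, YapHMKO, Pard3WT YapWT and Pard3HMKO YapHMKO groups. Adjusted p-values are Benjamini-Hochberg values over all 18572 genes, an SE is the log2 fold change divided by the root of F, and genes under 0.05 were called. Differences between ages were contrasts of the same fit. Alternatives used DESeq2 1.42.0, limma 3.58.1 and subsets of cells or libraries. In simulated counts for this comparison on 18572 genes, 69% of 100 genes changed by a log2 of 1 and 97% of 100 genes changed by 2 were recovered, with 5 false calls. The changed genes were drawn only from those with a mean of at least 10 CPM. Counts were simulated with the spread fitted as a trend over expression level, without genes whose reads lie mostly in 1 cell. The figures do not cover lower genes or such genes.

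Named genes were Pard3, Alb and Afp, the called genes with the 12 highest and 12 lowest log2 fold changes (mean of 10 CPM or more in either group, libraries apart), up to 4 called genes of each list by adjusted p, and the 4 largest differences in each direction between ages. For the differences the libraries had to be apart at 1 or both ages. Predicted genes, ribosomal, mitochondrial and pseudogene names were left out. Some genes that the rule names are not reported here. The 40 lists hold 782 genes, of which 750 were tested. Members and lists were chosen with earlier results of these data known. Libraries of a number were not paired: deviations of same-numbered libraries correlated at -0.01 at E19.5.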

Additional observations from a re-analysis of the deposited data

Results flagged for a closer look

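Differences of the Pard3HMKO effect between ages that passed the test of the difference itself were set apart, in log2 units. Between E19.5 and E17.5 (E19.5 minus E17.5) they were -8.19 for Cyp2c69, -7.82 for Hsd3b6, -6.51 for Cyp4a12a, -5.72 for Eif4ebp3, -5.33 for Prlr and -5.04 for G6pc. Iigp1 was at -4.04 and Fgl1 at -2.13. Positive values were 4.27 for Erdr1, 2.71 for C9, 2.70 for Tnnc1, 2.69 for Ces1e and 1.54 for Serpina6. The sex chromosome transcripts Xist (-6.42), Ddx3y (-6.36) and Eif2s3y (-5.41) moved with the make-up of the libraries by Xist and Y reads, which differs between the ages.

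Between P0 and E19.5 (P0 minus E19.5) they were -10.32 for Ankrd55, -10.29 for Nr0b2, -9.59 for Slc51b, -9.04 for Fgf21, -5.56 for Eif4ebp3, -2.98 for Iigp1, -2.58 for Fgl1 and -2.22 for Erdr1. Positive values were 15.37 for Acta2, 11.53 for Kcnip1, 8.71 for Zcchc5, 7.09 for Scd2, 3.53 for Serpina6 and 2.92 for Cited1. Ddx3y was at 5.57 and Eif2s3y at 5.53. For Acta2 the E19.5 effect was -7.76, with 1 cell holding most reads of Pard3WT library 1, and the P0 effect 7.60 ± 2.81 (adjusted p = 0.0520), with no read in the P0 Pard3WT libraries.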

How the results depend on the processing

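The counts of genes called at E19.5 varied with the settings. They were 1846 higher and 1771 lower with B6C3F1 in place of Pard3WT, 1471 higher with each cell weighted alike, 1175 lower with DESeq2, and 162 higher and 263 lower with Xist reads and no Y reads required. With more Xist than Y reads they were 181 and 351, without marked cells 181 and 314, and without any 1 library 251 to 299 higher and 335 to 495 lower. Fewer cells or libraries enter these last settings. Differences between ages are given here as percentages of the genes tested. For E19.5 against E17.5, leaving out any 1 library gave 0.999% to 1.85% positive and 0.624% to 1.06% negative, the lowest without E17.5 Pard3HMKO replicate 2 for the positive and without E19.5 Pard3HMKO replicate 2 for the negative. Counts of positive differences also moved by over 1.5 times without E17.5 Pard3WT replicate 2, E19.5 Pard3HMKO replicate 2 or E19.5 Pard3WT replicate 1. Negative ones did so without E17.5 Pard3HMKO replicate 2, either E19.5 Pard3HMKO library or E19.5 Pard3WT replicate 1. Leaving out marked cells gave 0.685% positive and 0.418% negative. DESeq2 gave 2.85% negative and no filter on counts 1.93%. For P0 against E19.5, 2.68% were positive without marked cells, where P0 Pard3HMKO is left with 6 cells of 1 library and is assumed to vary like the other groups. Other settings run kept both counts within 1.5 times.

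Of 143 named genes, 17 turned direction against B6C3F1, a different strain. They were Alb (1.08), Acta2 (2.18), Cldn1 (0.13), Cyr61 (0.49), Dusp5 (0.17), Atf3 (0.37), Aldoa (0.19), Ebp (0.11), Fdps (0.0527), Insig1 (2.36), Apoc1 (0.60), Tsix (2.69), Scd2 (0.89), Ccnd3 (-0.47), Rbp4 (-1.32), Nr0b2 (-3.21) and Fgf21 (-3.78). Low genes turned elsewhere: leaving out 1 library gave -2.91 to 0.50 for Slc51b and -0.21 to 2.05 for Fgf21. Kcnip1 was at -0.0349 with DESeq2 and -0.0339 with RLE, -1.56 with Xist reads alone, -0.81 with more Xist than Y reads, -0.35 without marked cells and -2.06 to 6.27 without any 1 library. The cause was not tested. Of the named genes 48 lost their call with Xist reads and no Y reads required, 43 with more Xist than Y reads, 35 without marked cells and 3 with RLE.

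With the replicate number as a replicate block, 544 genes were higher and 709 lower at E19.5, 2.07% of differences were positive and 1.24% negative against E17.5, and 4.18% and 5.60% at P0. Same-numbered libraries did not deviate together, with correlations of -0.01 at E19.5, -0.07 at E17.5 and -0.03 at P0 over 6636 genes, so the numbers were not taken as pairs.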
